A study of Mus musculus with 3 samples.

Results

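The T cells of this study were 209 of 31292 droplet-captured cells of mouse bone marrow. They were selected on transcripts of the CD3 chains of the T cell receptor complex: a cell was counted when it held at least 1 unique molecular identifier (UMI, 1 captured transcript) in 2 or more of Cd3e, Cd3d and Cd3g, with at most 2 UMIs of Mpo, at most 1 of Cd79a and at most 1 of Siglech, which keep out myeloid progenitors, B-lineage cells and plasmacytoid dendritic cells. Among the kept cells (200 or more genes and at most 5% mitochondrial UMIs), 110 of 10674 cells met this rule in the Control library, 49 of 10345 in IR and 50 of 10273 after IR with CBD (IR+CBD). Values given as 3 numbers run in that library order.

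Marrow was taken from femurs of male C57BL/6 mice 14 days after irradiation, and each library pooled 3 mice. The Control mice were not irradiated. The IR mice received 6 Gy of Cobalt-60 gamma rays and the solvent, soybean oil with DMSO, injected into the peritoneum. The IR+CBD mice received the same dose and cannabidiol, a non-intoxicating compound of Cannabis, injected before and after irradiation. The label of that library names only the CBD treatment, and the irradiation is given by the design text. Cells were sorted as Lin-Kit+, Lin-Kit- and Lin+ and remixed at 5:4:1, so every share given here is a share of remixed cells and not of the marrow. With 1 library a condition, condition and library cannot be told apart, no test between conditions was possible, and the 95% intervals given with shares (exact binomial), levels (exact Poisson) and ratios (exact conditional binomial) cover counting error only.

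A T cell recognises antigen through a receptor of alpha and beta or of gamma and delta chains, and the CD3 chains pass the signal on. The co-receptors CD4 and CD8 divide most alpha-beta T cells into helper and cytotoxic cells. Marrow is a home of memory T cells, many of which lack the homing receptors of naive cells and keep effector genes ready. Some T cells also carry receptors better known from natural killer (NK) cells. Interferons, released in infection and after tissue damage, switch on a shared set of genes in nearly every cell type, and T cell activation brings a fast wave of immediate early genes.

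The T cells held medians of 5306, 6182 and 5148 UMIs in the Control, IR and IR+CBD libraries, against 12480, 14211 and 12502 over all kept cells. Their UMIs summed to 656459, 374995 and 288995. Of the 209 cells, 160 held all 3 CD3 genes and 49 held exactly 2, and 261 cells with just 1 CD3 gene lay outside the rule. Trbc2 was found in at least 83.3% of the cells with exactly 2 CD3 genes in every library, and in 7.29%, 4.71% and 2.50% of the cells with 1. A transcript of a T cell receptor constant gene, which the rule did not use, was present in 208 of 209 cells. Any pair of libraries shared 26 to 34 cell barcodes among their kept cells, and 1 T cell had a barcode also kept in another library. A doublet caller marked 5, 4 and 1 of the T cells.

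Beside the CD3 genes that chose them, the cells carried other transcripts of T cells. The genes with the largest ratio of level in T cells to all other kept cells, taking the lowest of the 3 libraries, were the CD3 genes Cd3e, Cd3g and Cd3d, the receptor constant genes Trac, Trbc2, Trgc2 and Trdc, the signalling genes Themis and Camk4, the GTPase Gimap3, the T-lineage factor Bcl11b, the co-receptor genes Cd8a and Cd8b1, the chemokine receptor Cxcr6, the death ligand Fasl, the chemokine Ccl5, the NK receptors Klra6 and Klra7, and the non-coding Ifngas1 and Gm2682. These 20 of 4158 ranked genes describe the selection and were not tested. Trac, the alpha chain constant gene, stood at 276, 421 and 346 counts per 1000000 summed UMIs (CPM) in T cells of Control, IR and IR+CBD, against 10.3, 5.40 and 0 in NK cells. Bcl11b stood at 160, 229 and 145 CPM in T cells against 5.15, 16.2 and 7.25 in NK cells. Here NK cells are 120 cells with UMIs in 2 or more of Ncr1, Klrb1c and Klre1, fewer than 2 CD3 genes and the same limits on Mpo, Cd79a and Siglech. B cells are 2373 cells with at least 2 UMIs of Cd79a and 1 of Ms4a1. Median depth was 5274, 8035 and 6112 UMIs in the NK cells and 3168, 3319 and 2885 in the B cells. Trbc2 also appeared in 40 of 120 NK cells but in 2 of 2373 B cells, and reads of Trbc1 and Trbc2, which are near-identical, may be split unequally.

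A few members carried transcripts of other lineages, and these bear on several results below. In 11 of the 209 cells (4, 5 and 2 by library) more than 0.5% of UMIs lay in a list of neutrophil, erythroid or B cell markers, a limit set after the values were seen. In 1 IR cell 37.1% of UMIs were neutrophil transcripts, in another IR cell 42.9% were erythroid, and in 1 IR+CBD cell 28.7% were neutrophil. The caller marked 6 of the 11 cells as doublets. Where a value rests on them, the value over the other 198 cells follows it.

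T cells made up 1.03% (0.848 to 1.24) of the kept Control cells. The share was 0.474% (0.351 to 0.626) in IR and 0.487% (0.361 to 0.641) with CBD. The share in IR was 0.460 times that in Control (0.321 to 0.649), and the share in IR+CBD was 1.03 times that in IR (0.679 to 1.56). Both irradiated libraries thus lay below Control and within counting error of each other. When every cell was thinned to 2000 UMIs before the rule was applied, 79, 47 and 42 T cells were left and the ratio of IR to Control was 0.608 (0.415 to 0.884). NK cells were also scarcer, at 0.310 times the Control share in IR (0.180 to 0.510), and B cells were at 1.15 times (1.04 to 1.28). T cells per 100 B cells numbered 14.9, 5.95 and 6.14 in library order. Because the sort fixed the proportions of the mixture, these shares do not give T cell numbers in the marrow.

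Of all 209 T cells 147 showed neither co-receptor, but in IR only 24 of 49 did. As shares of remixed cells, the values below do not give the make-up of T cells in the marrow. Cd8a or Cd8b1, which encode the chains of CD8, were found without Cd4 in 18 T cells of Control, which is 16.4% (10.0 to 24.6). In IR 22 cells held them, or 44.9% (30.7 to 59.8), and in IR+CBD 15, or 30% (17.9 to 44.6). The Cd8 share in IR was 2.74 times that in Control (1.40 to 5.43), and the share in IR+CBD was 0.668 times that in IR (0.322 to 1.35). With each cell thinned to 1000 UMIs, 10 Cd8 cells were left in each library, or 9.09%, 20.4% and 20% of its T cells. The ratio of IR to Control was then 2.24 with an interval that includes 1 (0.839 to 6.01). As a measure of free RNA, a Cd8 gene was found in 0 of 120 NK cells, which allows a share of up to 2.50%, and in 1 of 2373 B cells.

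Cd4 without Cd8 was found in 3, 3 and 1 cells, and no cell held both. Foxp3, the regulator of regulatory T cells, was found in 3, 2 and 0 cells. No T cell held Ptcra, which marks thymic precursors. Cells with neither co-receptor were 89, 24 and 34, or 80.9% (72.3 to 87.8), 49.0% (34.4 to 63.7) and 68.0% (53.3 to 80.5). Thinned, they were 90.9%, 77.6% and 80.0%. Cd4 had 11 UMIs or fewer in the whole set, and a cell without a co-receptor UMI is not shown to lack the protein.

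**Figure D1:**
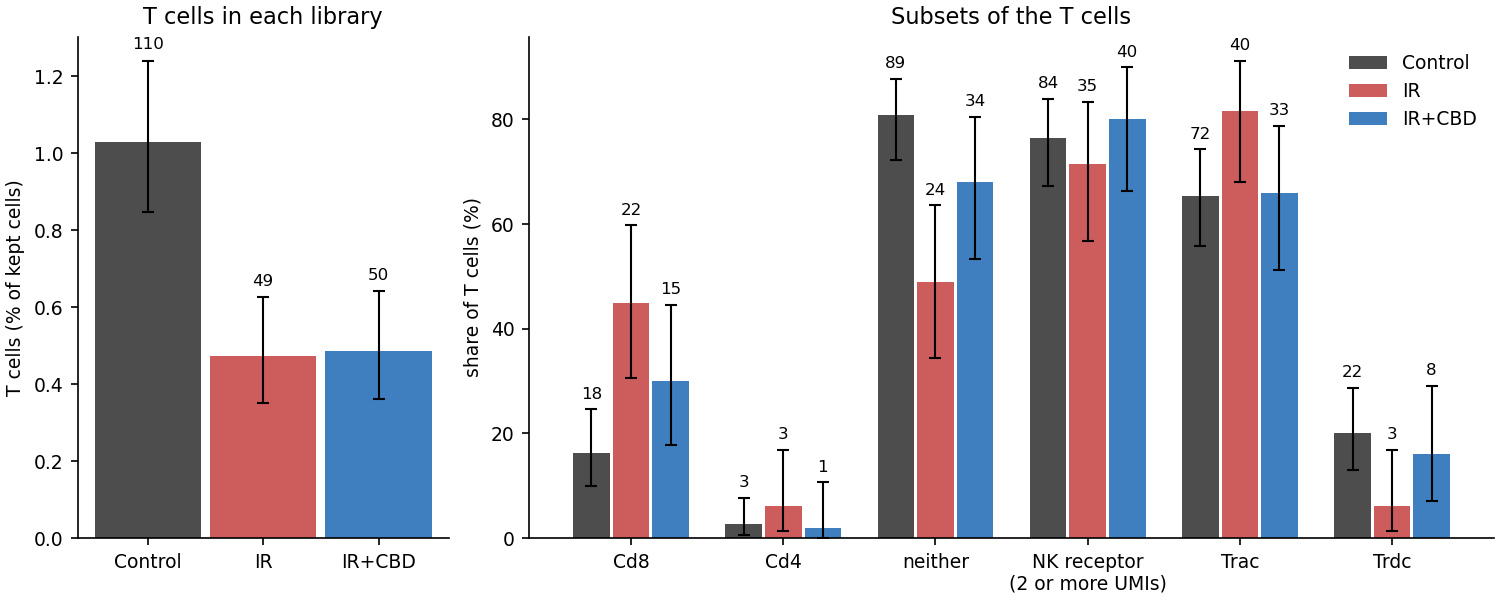
Shares by library, in percent, for Control, IR and IR+CBD: T cells among kept cells, and Cd8, Cd4, neither co-receptor, NK receptor, Trac and Trdc cells among T cells. Bars are shares, error lines their exact 95% binomial intervals, and the number above each is its cells. T cells are 1.03% of kept cells in Control against 0.474% in IR and 0.487% with CBD, and the Cd8 share runs from 16.4% in Control to 44.9% in IR.

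The receptor genes divided the cells further. Trac was found in 72, 40 and 33 cells, and Trdc, the delta chain constant gene, in 22, 3 and 8. Trdc without Trac was seen in 15, 3 and 7 cells. Trdc is also transcribed in NK cells, where 16 of 120 held it, so a Trdc UMI alone does not show a gamma-delta receptor. The Trdc level was 166, 42.7 and 163 CPM. By level, IR was at 0.257 times Control (0.142 to 0.436) and IR+CBD at 3.81 times IR (2.12 to 7.20). These ratios rest on 3 IR cells, of which 1 held 56.2% of the UMIs. Counted as shares of cells, they were 0.306 (0.0587 to 1.019) and 2.61 (0.627 to 15.3), and both intervals include 1. After thinning to 1000 UMIs a cell, Trdc was found in 8.18%, 6.12% and 8% of the T cells. The ratio of IR to Control was then 0.748 (0.130 to 2.998). Only 1 of the 55 Cd8 cells, in Control, held Trdc. Variable segments were rarely captured: Trgv genes were seen in 43 cells, Trbv genes in 38, Trav genes in 29 and Trdv genes in 9.

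NK receptor genes were present in most T cells. A cell was called NK receptor-positive with at least 2 UMIs over 22 genes of the Klr and Ncr1 families, which 84, 35 and 40 cells of the 3 libraries met. The shares were 76.4% (67.3 to 83.9) in Control, 71.4% (56.7 to 83.4) in IR and 80.0% (66.3 to 90.0) with CBD, and their intervals overlapped widely. Among B cells 0.716% were positive. Thinned to 1000 UMIs the shares were 47.3%, 38.8% and 64.0%, and the ratio of IR+CBD to IR was 1.65 (0.908 to 3.08). Of the cells with neither co-receptor, 126 of 147 were positive. Of the Cd8 cells, 7 of 18, 17 of 22 and 8 of 15 were positive in library order, but after thinning 0, 2 and 1 were left, too few to compare. Klrd1, which pairs with NKG2 chains, was found in 78, 32 and 39 cells. Ncr1, a receptor that defines NK cells, was in 14, 3 and 9. Genes of the Klra family are close copies, and reads may be split among them.

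**Figure D2:**
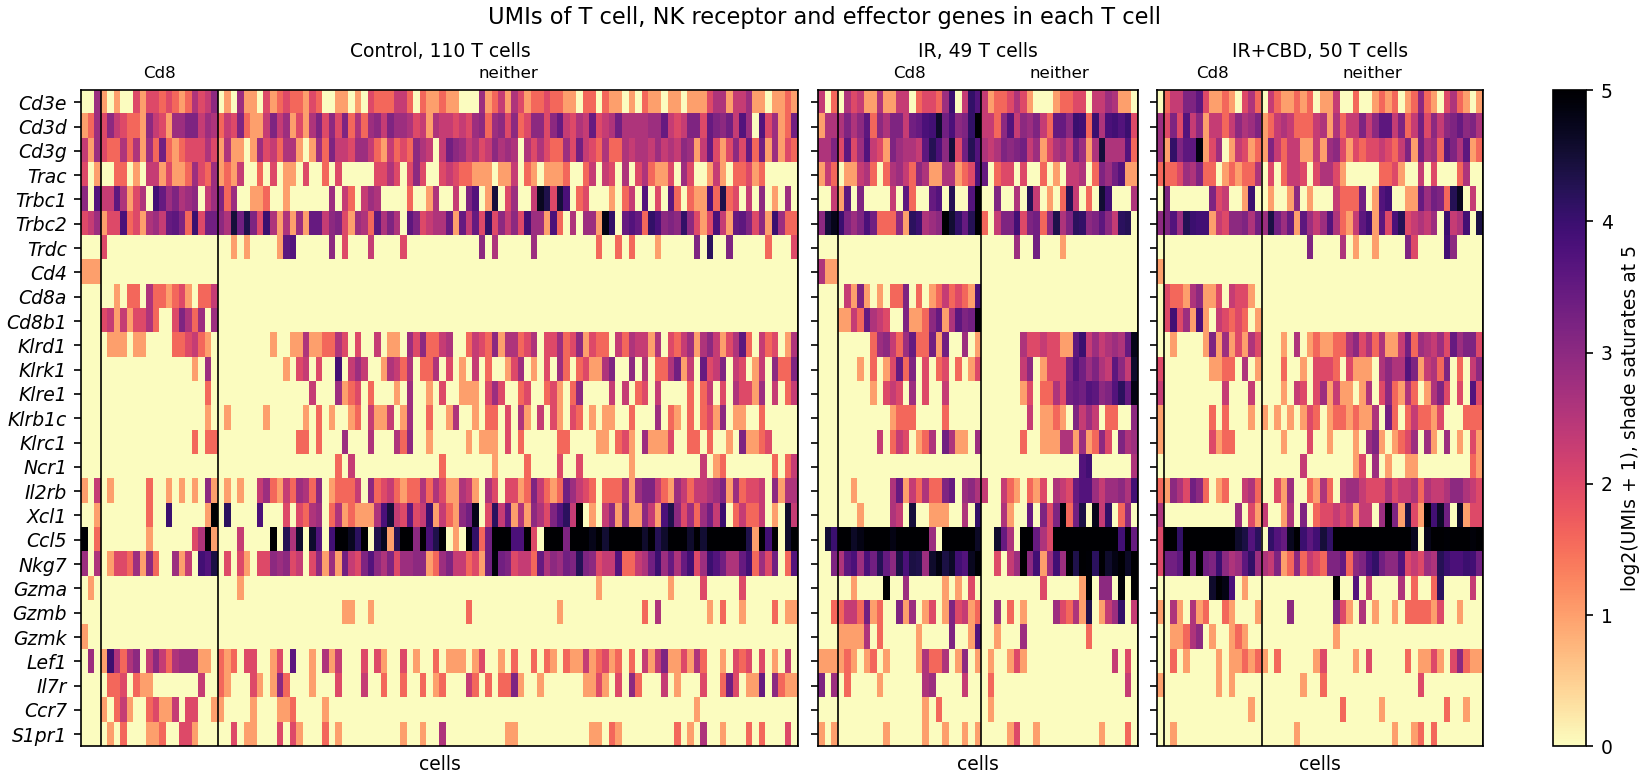
Map of UMIs in each of the 209 T cells, with cells as columns, by library and ordered Cd4, Cd8 and neither, and genes of the receptor complex, the co-receptors, NK receptors and effectors as rows. Colour is log2 of UMIs plus 1. CD3 and Trbc2 transcripts run across nearly all cells, Cd8 transcripts mark 55 of them, and Ccl5 is seen in 173.

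NK receptor-positive cells were set against the other T cells within each library, with UMIs summed per library and subset and library as a block (edgeR's quasi-likelihood test). Of 6206 genes tested, 18 were higher (0.29%) and 10 lower (0.161%) at a Benjamini-Hochberg adjusted p under 0.05. The NK receptor genes chose the cells and were left out of this reading. The higher genes included 2 of 10 cytotoxic granule genes, 2 of 18 effector and memory genes and 3 of 5 tested erythroid markers. Gzma, a granzyme of cytotoxic granules, stood at 15.2, 827 and 960 CPM in positive cells of Control, IR and IR+CBD and at 15.4, 15.5 and 0 in the others. It was thus higher in both irradiated libraries and level in Control (log2 difference 5.13, edgeR adjusted p = 0.0001112). Fcer1g, an adaptor of activating receptors, was 427, 399 and 747 CPM against 53.9, 0 and 153, so the groups did not overlap (log2 difference 3.16, edgeR adjusted p = 0.0001112). Tyrobp, the adaptor DAP12, stood at 315, 319 and 912 CPM against 23.1, 0 and 306 (log2 difference 2.86, edgeR adjusted p = 0.0007881). Xcl1, a chemokine that draws cross-presenting dendritic cells, stood at 1041, 637 and 1099 CPM against 392, 109 and 68.0 (log2 difference 2.49). The adhesion and activation receptors Cd160, Crtam and Itga2, the protease inhibitor Ctla2a, Samd3 and the granzyme Gzmm were also among the 12 higher genes with the smallest p. The other 2 of those 12, Hba-a1 and Hbb-bt, are haemoglobin genes, and Hba-a1 was carried to 96.8% by 1 IR cell.

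Among the 10 genes lower in NK receptor-positive cells were 1 of 23 tested TCR signalling genes and 1 of 18 effector and memory genes. Lower calls also came from the lists of regulatory T (1 of 7), checkpoint (1 of 3), interferon response (1 of 44) and innate lymphoid genes (1 of 1). Ctla4, an inhibitory receptor, stood at 5.70, 9.66 and 8.69 CPM in positive cells and at 46.2, 249 and 136 in the others (log2 difference -3.75, edgeR adjusted p = 0.0008332). Themis, a regulator of receptor signalling, stood at 85.5, 409 and 95.6 CPM against 585, 637 and 578 (log2 difference -1.85, edgeR adjusted p = 0.01146). Cxcr6, a chemokine receptor of tissue memory cells, stood at 58.9, 113 and 60.8 CPM against 131, 451 and 425 (log2 difference -1.83, edgeR adjusted p = 0.004164). Ly6a, the interferon-inducible Sca-1, the phosphatase gene Inpp4b, Sntb1, Fam169b, St6galnac3, Gm8369 and BE692007 complete the 10. Over the 198 cells 18 genes were higher and 12 lower, and Gzma, Fcer1g, Tyrobp, Xcl1, Ctla4, Cxcr6 and Themis were among them. NK receptor-positive cells were the deeper ones in IR (median 7603 UMIs against 4428), and with each T cell thinned to 1000 UMIs edgeR's test called 2 genes higher and 5 lower of 1337 that could be tested. The calls depended on single libraries: edgeR's test made 1 call without Control and 61 without IR+CBD. Without IR it made 0 calls, with 201 of 5434 genes tested at an unadjusted p under 0.05. With all 3 libraries 316 of 6206 were at an unadjusted p under 0.05.

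**Figure D3:**
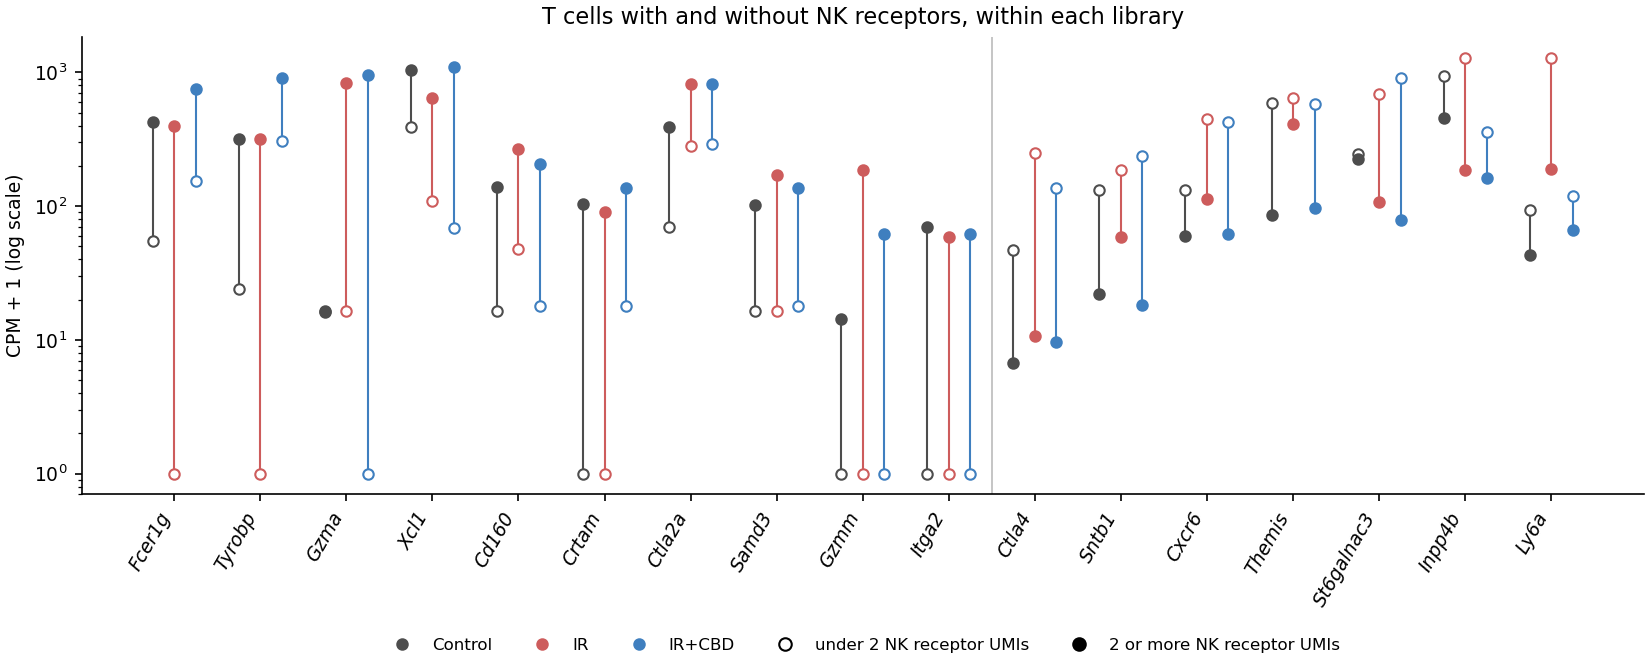
Level, as CPM of summed UMIs plus 1 on a log axis, of genes called between NK receptor-positive and other T cells, with filled points for positive and open points for other cells in each of the 3 libraries. Fcer1g, Tyrobp and Xcl1 lie higher in positive cells of every library and Ctla4, Themis and Cxcr6 lower. Gzma lies higher in the irradiated libraries only.

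The planned comparison of Cd8 with Cd4 cells rested on 7 Cd4 cells. It called 9 of 2174 genes higher (0.414%) and 1 lower (0.046%), and most were neutrophil genes such as S100a9, S100a8 and Ngp that a few Cd8 cells carried. Over the 198 cells edgeR's quasi-likelihood test made 0 calls, with 118 of 1982 genes tested at an unadjusted p under 0.05. Ikzf2, Fgf13 and Kcnq5 were not called there, at log2 differences of 7.43, 7.39 and -2.39 against 7.56, 7.51 and -2.35 over all cells. No Cd4 cell was among those left out, so the near-equal differences do not show that they are stable. Ikzf2 and Fgf13 had no UMI in the Cd4 cells of any library, so the size of their differences rests on the floor. Cd8 cells were therefore also set against the cells with neither co-receptor, a comparison chosen after the data were seen. It called 18 of 6068 genes higher (0.297%) and 15 lower (0.247%) in Cd8 cells, and 6 higher and 12 lower over the 198 cells. The genes named next were called over both sets of cells, and values are over all 209.

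Of the genes higher in Cd8 cells over all 209, 7 were among the 9 tested neutrophil markers, and 1 each came from the lists of TCR signalling, naive, cytotoxic granule and checkpoint genes. Dapl1, found in naive CD8 cells, stood at 366, 90.3 and 0 CPM in Cd8 cells of Control, IR and IR+CBD and at 17.2, 0 and 0 in cells with neither co-receptor (log2 difference 4.54, edgeR adjusted p = 0.0004362). Themis stood at 382, 706 and 542 CPM against 126, 196 and 54.4 (log2 difference 2.10, edgeR adjusted p = 0.00265). Gzmk, a granzyme of memory CD8 cells, stood at 0, 186 and 253 CPM against 0, 48.9 and 4.94 (log2 difference 2.94, edgeR adjusted p = 0.03072). Havcr2, the inhibitory receptor TIM-3, was seen in 0, 2 and 5 Cd8 cells and in no cell with neither co-receptor. Gm44174 and BE692007 were the other 2 genes higher over the 198 cells. Over all 209 cells the neutrophil genes Ltf, Wfdc21, Lcn2, Retnlg, Ifitm6, Ngp, S100a8 and Camp and the adhesion gene Alcam were called as well, and none of these was called over the 198.

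The genes lower in Cd8 cells included 7 of 14 tested NK receptor genes, 1 of 3 gamma-delta genes and 3 of 5 erythroid markers. Klre1 stood at 16.6, 135 and 96.4 CPM in Cd8 cells and at 229, 804 and 420 in the cells with neither co-receptor (log2 difference -2.67, edgeR adjusted p = 0.0004362). Ncr1 was at 0 in the Cd8 cells of every library and at 63.0, 168 and 98.8 CPM in the others (edgeR adjusted p = 0.0007072). Trdc stood at 24.9, 0 and 0 CPM against 202, 86.9 and 232 (edgeR adjusted p = 0.001184). Fcer1g, Tyrobp, Klrb1c, Klrk1, Klra1, Klra9, Klrb1a, Lrmda and the potassium channel gene Kcnq5 were lower as well. The haemoglobin genes Hba-a1 and Hbb-bt were called over all 209 cells and not over the 198. Without the IR library edgeR's test made 0 calls in this comparison, with 177 of 5073 genes tested at an unadjusted p under 0.05. With every library in the test 300 of 6068 were at an unadjusted p under 0.05.

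Between libraries, genes were compared by the ratio of summed UMIs, in which fewer expressing cells and less RNA per cell cannot be told apart. Among 3449 genes with at least 50 UMIs in the pair, 145 were more than 2-fold higher in IR than in Control (4.2%) and 158 more than 2-fold lower (4.58%). Of 2255 genes, 43 were more than 2-fold higher in IR+CBD than in IR (1.91%) and 40 lower (1.77%). Of 3192 genes, 85 were more than 2-fold higher in IR+CBD than in Control (2.66%) and 108 lower (3.38%). Over the 198 cells the counts were 133 and 147 of 3245, 36 and 36 of 2016, and 56 and 98 of 2979. The comparisons of IR with Control and of IR+CBD with IR share the IR library, so a value high in IR by counting error alone is high in the first and low in the second.

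The genes ranked furthest from 1 were in large part transcripts of other lineages. In IR over Control the 8 highest were the haemoglobin genes Hbb-bs, Hba-a1, Hba-a2 and Hbb-bt, the granzyme Gzma, and the neutrophil granule genes Camp, Ngp and Ltf, and in single IR cells lay 96.4% of Hbb-bs and 98.3% of Camp UMIs. Among the 8 lowest were the MHC class II genes H2-Aa, H2-Ab1, H2-Eb1 and Cd74, with 94.4% of Cd74 UMIs in 1 Control cell, and Prkg1, Hdac9 and Angpt1. Over the 198 cells Camp was lower in IR than in Control, at 0.628 times, and Cd74 was at 1.31 times. In IR+CBD over IR the neutrophil and myeloid genes Retnlg, Lyz2, Lgals3 and Ifitm3, with Rgs2, Lrmda, Tyrobp and Zfp36, ranked highest. The haemoglobin genes, the B-lineage factor Ebf1, the histone gene H2ac8, Ifi27l2a and Ly6a ranked lowest. In IR+CBD over Control, Gzma and the neutrophil genes Lyz2, Ltf, S100a9, S100a8, Retnlg, Lcn2 and Ngp ranked highest, and Angpt1, Ifitm1, Ebf1, Sox4, Cd74, Dapl1 and H2-Ab1 were among the 8 lowest.

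Cytotoxic and effector genes were higher in both irradiated libraries, and in NK cells as well. The granule list together stood at 2404, 4800 and 4336 CPM in T cells and at 4946, 16207 and 7932 in NK cells. In all other kept cells it stood at 2161, 2000 and 2303. The effector and memory list stood at 8365, 14627 and 16713 CPM in T cells and at 10407, 24477 and 12496 in NK cells. Of 10 granule genes, 9 were higher in IR than in Control (median log2 ratio 1.34, against -0.03 for all genes), and 4 were higher and 6 lower in IR+CBD than in IR (median -0.19, against -0.01). Gzmb, a granzyme that starts apoptosis in target cells, stood at 32.0, 373 and 201 CPM across Control, IR and IR+CBD. IR was at 11.7 times Control (7.35 to 19.4) and IR+CBD at 0.538 times IR (0.389 to 0.735). Its UMIs lay in 13, 33 and 23 cells, so the difference was spread over many cells (thinned to 1000 UMIs, 1, 14 and 11). Gzma stood at 15.2, 688 and 765 CPM, at 45.2 times Control in IR (24.2 to 95.3), but in 13 cells each of IR and IR+CBD, and 1 IR cell held 41.1% of its UMIs. Over the 198 cells Gzma in IR+CBD was at 1.52 times IR, against 1.11 (0.924 to 1.34) over all.

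Chemokines and their receptors followed. Ccl5, which attracts lymphocytes, stood at 4069, 8432 and 9661 CPM, at 2.07 times Control in IR (1.97 to 2.18) and 1.15 times IR in IR+CBD (1.09 to 1.21). Ccl4 stood at 73.1, 240 and 512 CPM and Cxcr3 at 51.8, 136 and 65.7. S100a4, a calcium-binding protein of memory T cells, stood at 76.2, 547 and 574 CPM, and at 80.2, 589 and 447 over the 198 cells, so the order of the irradiated libraries turned. Ccl4 was highest in IR+CBD and Cxcr3 in IR, so the irradiated libraries did not share 1 order. Ifng differed less, at 125, 208 and 221 CPM, and Il2rb, the interleukin-15 receptor beta chain, stood at 451, 477 and 578. Xcl1 was lower in IR, at 0.599 times Control (0.509 to 0.703), and at 1.63 times IR in IR+CBD (1.35 to 1.96). Of 18 measured genes in the effector and memory list, 15 were higher in IR than in Control (median log2 ratio 0.77).

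Genes of naive and central memory cells were lower in IR. Of 14 measured, 13 were lower than in Control (median log2 ratio -0.97), and in IR+CBD over IR 5 were higher and 6 lower (median -0.11). Lef1, a factor of naive T cells, stood at 326, 128 and 152 CPM, at 0.393 times Control in IR (0.281 to 0.539). S1pr1, the receptor by which lymphocytes leave tissue, stood at 89.9, 40.0 and 27.7 CPM, and Ccr7, the lymph node homing receptor, at 51.8, 10.7 and 24.2. S1pr1 was found in only 32, 12 and 6 cells and Ccr7 in 19, 3 and 5. By share of cells, the intervals of IR over Control included equal shares for Lef1 (0.428 to 1.16), S1pr1 (0.395 to 1.68) and Ccr7 (0.0672 to 1.20). Il7r, the interleukin-7 receptor, was lower in each irradiated library, at 204, 101 and 31.1 CPM, with IR+CBD at 0.307 times IR (0.131 to 0.647). By share of cells, Il7r in IR was at 0.404 times Control (0.175 to 0.830), but at 0.982 times (0.342 to 2.52) with each cell thinned to 1000 UMIs. Its share in IR+CBD was 0.653 times that in IR (0.191 to 2.06). Klf2, which drives S1pr1, stood at 503, 229 and 443 CPM, so it was low in IR alone.

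The same groups of genes were then compared within Cd8 cells. Of the naive and central memory genes measured there, all 11 were lower in IR than in Control (median log2 ratio -1.19), and 16 of 18 effector and memory genes were higher (median 2.89). Cd8 cells held 120294, 177169 and 83027 UMIs, with medians of 5855, 6801 and 5254 a cell. Ccr7 was found in 12 of 18, 2 of 22 and 1 of 15 Cd8 cells in library order, at 216, 16.9 and 12.04 CPM. The IR level was 0.0783 times Control (0.0152 to 0.256). Lef1 in Cd8 cells stood at 640, 181 and 132 CPM and Tcf7, a factor of naive and stem-like T cells, at 283, 113 and 72.3. Ccl5 was found in 5 of 18, 21 of 22 and 15 of 15 Cd8 cells, at 357, 9426 and 16103 CPM, which is 26.4 times Control in IR (19.5 to 36.6). Gzmb, Gzmk, Cxcr6 and S100a4 had no UMI in the 18 Control Cd8 cells, which allows up to 24.9 CPM of each. In IR Cd8 cells they stood at 350, 186, 282 and 756 CPM, at least 14.0-fold, 7.47-fold, 11.3-fold and 30.3-fold higher, and in IR+CBD at 217, 253, 229 and 1048. The Cd8 cells of both irradiated libraries thus carried transcripts of Gzmb, Gzmk, Cxcr6 and S100a4, which those of Control did not show at this depth. Other effector genes, such as Ccl5, were seen in Control Cd8 cells, and Xcl1 ran the other way. Among Cd8 cells without a high share of other-lineage transcripts, Xcl1 stood at 906, 326 and 145 CPM in library order. In Control 1 Cd8 cell held 91 of its UMIs and another held 15. In cells with neither co-receptor Ccl5 was already at 4946 CPM in Control and at 7904 and 7174 after irradiation, while Gzmb stood at 40.1, 413 and 193. Pdcd1, the inhibitory receptor PD-1, was found in 0, 2 and 5 Cd8 cells, and the IR+CBD level was 5.97 times IR (2.03 to 21.2).

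**Figure D4:**
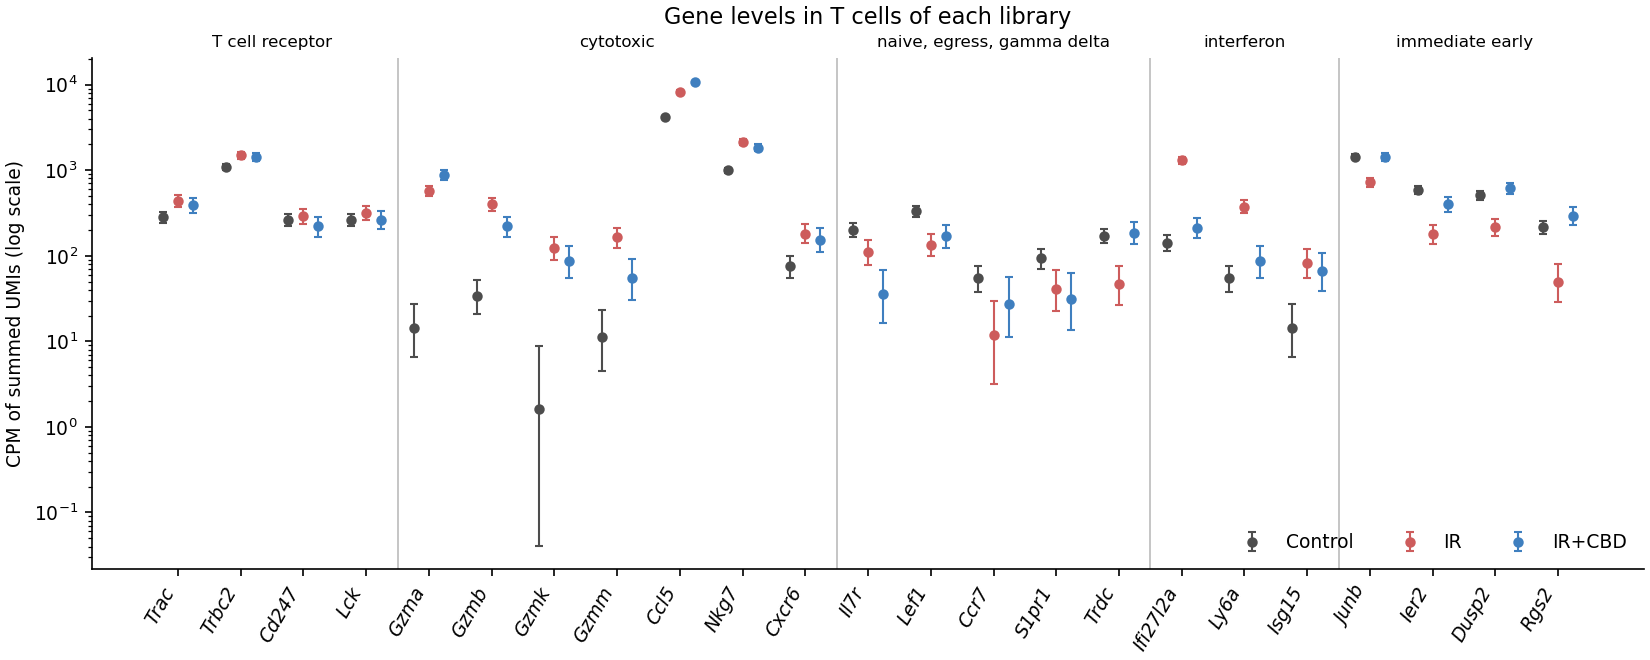
Level of named genes in T cells of each library, in CPM of summed UMIs on a log axis with exact 95% Poisson intervals, over the 198 cells without a high share of other-lineage transcripts. Granzyme genes lie lowest in Control, the interferon gene Ifi27l2a and Ly6a are highest in IR, and Junb and Ier2 are lowest in IR.

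Interferon-response genes were higher in IR T cells and lower again in IR+CBD. Of 62 genes in the list, 42 reached 20 UMIs in IR and Control together, and 40 of them were higher in IR and 2 lower (median log2 ratio 1.13, against -0.03 for all genes). In IR+CBD over IR, 3 of 38 were higher and 35 lower (median -0.58, against -0.01). Ifi27l2a, a small mitochondrial membrane protein induced by interferon, stood at 166, 1243 and 301 CPM. IR was at 7.48 times Control (6.06 to 9.31), and IR+CBD at 0.242 times IR (0.190 to 0.305). It was found in 39, 44 and 21 cells. Ly6a stood at 51.8, 379 and 76.1 CPM. Usp18, which restrains the interferon receptor, stood at 7.62, 48.0 and 20.8 CPM, and IR was at 6.30 times Control (10.96 times over the 198 cells). Its UMIs in that pair lay below the minimum of 50 used to compare genes between libraries, so these ratios are uncertain. Ifi27l2a, Ly6a and Usp18 were all highest in IR, with IR+CBD nearer to Control for Ifi27l2a and Ly6a. Isg15, a ubiquitin-like modifier, stood at 38.1, 77.3 and 76.1 CPM, with IR+CBD close to IR (0.984 times, 0.539 to 1.77). In Control 64.0% of its UMIs came from 1 cell, and over the 198 cells IR was at 5.68 times Control.

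The pattern was present in Cd8 cells and in those with neither co-receptor. Ifi27l2a stood at 133, 1293 and 458 CPM in Cd8 cells and at 170, 929 and 242 in cells with neither. It was also found outside the T cells. The median log2 ratio of the list in IR over Control was 0.83 in NK cells, 1.35 in B cells and 1.21 in all other kept cells. In IR+CBD over IR it was -0.45, -1.11 and -1.05. MHC class I genes, which present peptides to CD8 cells and respond to interferon, differed less: 18 of 22 were higher in IR than in Control (median 0.55), and 19 of 22 were lower in IR+CBD than in IR (median -0.20). H2-K1 stood at 1575, 2560 and 2100 CPM and the peptide transporter gene Tap1 at 35.04, 133 and 128.

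The promoters of the listed genes were searched for letters that interferon-activated factors are known to bind. The core of the interferon-stimulated response element, written as GAAA, any 2 bases and GAAA again, was searched on both strands from 250 bases before to 50 after each gene's start in RefSeq promoters (GRCm38.p6). It was found in 27 of 48 interferon-list genes with a promoter (56.2%), in 1079 of 27025 genes overall (3.99%, which is 1131 of 32851 promoters, 3.44%), in 5 of 19 MHC class I genes, in 3 of 9 cytotoxic granule genes, in 2 of 29 immediate early genes and in 0 of 11 naive and central memory genes. A match describes the letters and not a bound site. The promoters of 3 listed genes are printed 5′ to 3′ on the gene's strand, with the matched letters in capitals, to show how the element lies before the start. Isg15 (minus strand, chr4:156200769-156201068) holds 3 overlapping matches. Ifi206, which encodes a DNA-sensing family protein (minus strand, chr1:173491269-173491568), and Igtp, an immunity-related GTPase (plus strand, chr11:58199306-58199605), hold 1 each.
Isg15: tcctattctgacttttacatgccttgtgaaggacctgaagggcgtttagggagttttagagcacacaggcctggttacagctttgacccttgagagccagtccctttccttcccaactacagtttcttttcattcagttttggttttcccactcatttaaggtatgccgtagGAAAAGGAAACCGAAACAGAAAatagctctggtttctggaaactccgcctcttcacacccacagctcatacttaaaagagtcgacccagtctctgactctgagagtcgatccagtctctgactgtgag
Ifi206: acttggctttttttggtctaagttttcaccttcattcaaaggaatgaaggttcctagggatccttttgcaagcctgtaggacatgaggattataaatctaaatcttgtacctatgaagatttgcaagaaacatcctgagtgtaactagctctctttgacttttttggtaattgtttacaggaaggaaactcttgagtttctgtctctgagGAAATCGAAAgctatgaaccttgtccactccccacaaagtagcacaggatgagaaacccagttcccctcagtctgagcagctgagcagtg
Igtp: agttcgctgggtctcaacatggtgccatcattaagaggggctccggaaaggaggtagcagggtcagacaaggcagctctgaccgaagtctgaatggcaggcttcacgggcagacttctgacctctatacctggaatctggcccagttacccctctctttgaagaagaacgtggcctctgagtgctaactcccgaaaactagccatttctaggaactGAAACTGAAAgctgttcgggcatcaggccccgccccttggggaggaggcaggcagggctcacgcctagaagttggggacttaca

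Ifi206 stood at 51.8, 157 and 86.5 CPM in T cells of Control, IR and IR+CBD, and Igtp at 24.4, 66.7 and 38.1. Both were highest in IR, as most genes of the list were, and their intervals in IR over Control were 1.96 to 4.78 and 1.40 to 5.48 times. Isg15, with 3 matches, was at nearly the same level in both irradiated libraries, as given above.

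Immediate early genes ran the other way. Of 33 measured, 32 were lower in IR than in Control (median log2 ratio -0.90), and all 30 measured in IR+CBD over IR were higher in IR+CBD (median 0.73). Junb, a subunit of the AP-1 factor, stood at 1414, 709 and 1401 CPM. IR was at 0.502 times Control (0.436 to 0.576) and IR+CBD at 1.98 times IR (1.69 to 2.31). Ier2 stood at 571, 203 and 460 CPM, Dusp2, a phosphatase that limits kinase signals, at 504, 216 and 564, and Zfp36, which destabilises cytokine transcripts, at 260, 98.7 and 311. For these genes IR+CBD lay near Control. Rgs2, a regulator of G protein signals, stood at 228, 48.0 and 280 CPM, with IR+CBD at 5.84 times IR (3.47 to 10.3). Jun depended on single cells, since 41.3% of its IR+CBD UMIs came from 1, and over the 198 cells IR+CBD was at 1.21 times IR against 1.76 (1.33 to 2.35) over all.

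The same direction was seen in cells with neither co-receptor. There 30 of 32 immediate early genes were lower in IR (median -0.87) and all 29 higher in IR+CBD than in IR (median 0.95). In Cd8 cells 10 were higher and 14 lower in IR (median -0.18), and 12 were higher and 11 lower in IR+CBD over IR (median 0.04). In NK receptor-positive cells all 32 were lower in IR (median -0.84) and all 29 higher in IR+CBD than in IR (median 1.01), while in the other T cells 16 of 25 were lower in IR (median -0.21) and all 17 lower again in IR+CBD (median -0.72). The difference between the subsets was not tested. Outside the T cells the list's median in IR over Control was -0.31 in NK cells, -0.16 in B cells and -0.54 in all other kept cells, and in IR+CBD over IR 0.05, 0.24 and 0.13. These genes also respond to the handling of tissue, whose part in the result was not tested. Glucocorticoid-responsive genes ran the same way, with all 8 measured lower in IR (median -1.28) and 6 of 7 higher in IR+CBD than in IR (median 1.19). Tsc22d3, which encodes GILZ, stood at 120, 34.7 and 90.0 CPM.

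Genes of T cell receptor signalling differed less. Of 23 measured, 17 were higher in IR than in Control (median log2 ratio 0.31), and 18 of 22 were lower in IR+CBD than in IR (median -0.31). Themis stood at 184, 448 and 194 CPM. IR was at 2.43 times Control (1.91 to 3.10) and IR+CBD at 0.433 times IR (0.314 to 0.589). Themis was called higher in Cd8 cells, whose share of the T cells was also highest in IR, and the part of that share in the result was not tested. Within Cd8 cells it stood at 382, 706 and 542 CPM. Lck, the kinase that starts the receptor signal, stood at 248, 307 and 246 CPM.

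NK receptor genes were higher in IR for 12 of 14 measured (median log2 ratio 0.62), and 6 were higher and 8 lower in IR+CBD over IR (median -0.12). Klre1 stood at 186, 459 and 336 CPM and Klrd1 at 372, 485 and 512. Klra1 went against them, at 221, 85.3 and 221 CPM, with IR at 0.386 times Control (0.255 to 0.570). The adaptor Tyrobp was highest in IR+CBD, at 257, 264 and 789 CPM, 2.99 times IR (2.35 to 3.82) and 2.93 times over the 198 cells.

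Cell cycle genes were higher in IR T cells, and the lists together stood above Control in IR+CBD as well. The G2/M list stood at 1258, 4437 and 3886 CPM and the S phase list at 992, 1837 and 1353. Single cells held 31.1% of the G2/M UMIs in IR and 30.7% in IR+CBD. In IR all 22 measured G2/M genes were higher than in Control (median log2 ratio 2.31), and so were 21 of 22 S phase genes (median 1.04). In IR+CBD over IR 15 of 23 G2/M genes were lower (median -0.31, and -0.84 over the 198 cells). Top2a, a topoisomerase of dividing cells, stood at 27.4, 253 and 121 CPM and Mki67, a marker of proliferation, at 21.3, 163 and 76.1. Top2a UMIs were found in 13, 13 and 11 cells, and 34.7% of those in IR came from 1 cell, so a few cells carried the level. By share of cells IR was at 2.24 times Control for Top2a (0.959 to 5.26) and at 2.99 times for Mki67 (1.16 to 8.04). Hmgb2, a chromatin protein, was spread more widely, in 98, 46 and 49 cells, at 492, 1760 and 1682 CPM. Of p53 target genes 7 of 11 were higher in IR than in Control (median 0.31), and none of those with 50 UMIs passed 2-fold.

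**Figure D5:**
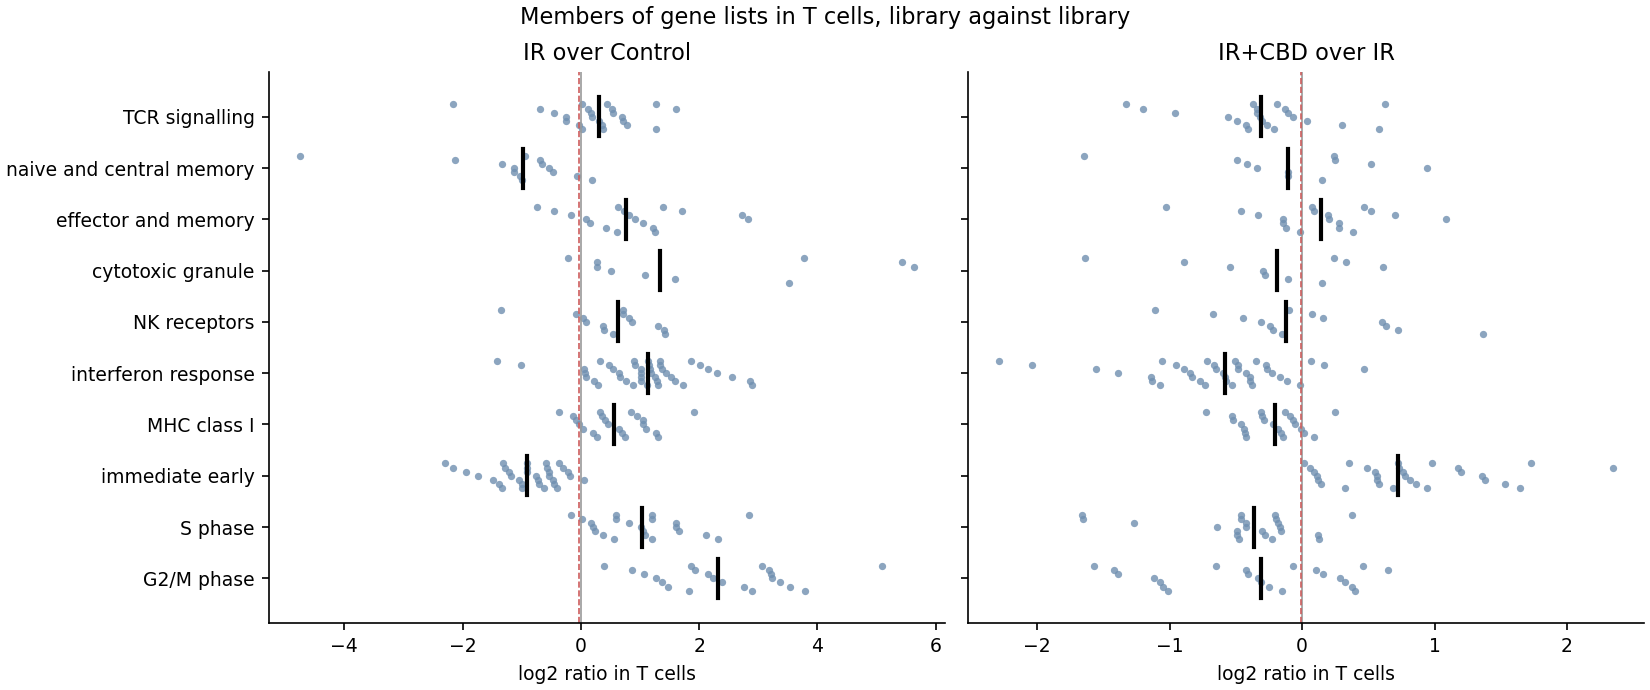
Log2 ratios of the measured genes of gene lists in all 209 T cells, IR over Control and IR+CBD over IR, with each point a gene, black bars the medians, the grey line at 0 equal levels and the dashed line the median of all genes. The interferon list lies above 0 in IR over Control (median 1.13) and below in IR+CBD over IR (median -0.58), and the immediate early list lies the other way (medians -0.90 and 0.73).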

How the data were processed

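The 3 droplet libraries (Control, IR, IR+CBD) were analysed. The authors deposited UMI counts per gene and cell barcode, made per the submitters' processing notes with Cell Ranger 4.0 and GRCm39. These counts were raw and unnormalised. Cells with 200 or more genes and at most 5% mitochondrial UMIs were kept. The members and gene lists were chosen with earlier results of these data known. Levels are CPM of UMIs summed over cells. Between libraries, genes with at least 50 UMIs in the pair were compared at 2-fold with exact intervals. Lists took members with at least 20 UMIs and a pseudocount of 0.5 UMI on the log2 scale. Within libraries, subsets were compared on summed counts with edgeR's quasi-likelihood test (edgeR 4.0.16, R 4.3.3), with library as a block, TMM scaling, filterByExpr (minimum count 5, minimum total 15) and a Benjamini-Hochberg adjusted p threshold of 0.05. DESeq2 1.42.0 was an alternative. The named genes were those of the T cell lists, the 8 highest and 8 lowest per library comparison by the interval bound nearest 1, the 12 smallest p per direction between subsets, and the 20 leading T cell genes. The scripts (Python 3.11.15, scipy 1.17.1, scanpy 1.11.5) were tested on simulated data. Doublets were marked with Scrublet, at 0.8% per 1000 cells, and kept in the main values. The comparison of Cd8 cells with cells holding neither co-receptor, and the values over 198 cells, were added after seeing the data. Promoters came from RefSeq tables of GRCm38.p6, another build than the counts, and were matched by gene symbol. Total UMIs were 199383228, 206932522 and 177806843 by library. Each sample's mice were pooled, so p-values do not measure the spread between mice. They measure how the subset difference varied across the 3 libraries, each of a different condition. A few genes that the naming rule would give are not reported here.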

Additional observations from a re-analysis of the deposited data

Results flagged for a closer look

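T and NK cells differed in sign for some cell cycle and p53 lists, which was not tested. In IR over Control the median log2 ratio of p53 targets was 0.31 in T cells and -0.26 in NK cells. S phase genes stood at 1.04 and -0.30, and G2/M genes at 2.31 and -0.24. In IR+CBD over IR, S phase genes stood at -0.37 in T cells and 0.62 in NK cells, and G2/M genes at -0.31 and 0.38. The NK medians rest on 70, 21 and 29 cells.

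Cells with 2 or more CD3 genes that the limits on Mpo, Cd79a and Siglech left out of the T cells numbered 23, 11 and 15 across Control, IR and IR+CBD.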

How the results depend on the processing

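With 1 library a condition, differences between libraries have no replicate check. No paired analysis between conditions was possible because each group has 1 sample. Of the alternative values of the main comparisons, 186 stayed close to the main value and 24 moved. With a minimum of 20 UMIs, 391 genes were 2-fold higher and 493 lower in IR than in Control, and 216 higher and 212 lower in IR+CBD than in IR. The interferon median in IR+CBD over IR was -0.81 with the mean of single-cell CPM. Calls of Cd8 against Cd4 cells came to 0 with DESeq2 (34 of 2174 genes tested at an unadjusted p under 0.05). They came to 0 with edgeR without the library block (86 of 1614), 0 over the 198 cells (118 of 1982) and 2 to 11 leaving out a library. Calls of Cd8 cells against cells with neither co-receptor came to 10 with DESeq2, 20 without TMM (9 higher, 11 lower), 65 without the filter, 2 without the block, 18 over the 198 cells, 5 thinned and 0 to 36 leaving out a library. Calls of NK receptor-positive against other cells came to 7 with DESeq2, 45 without the filter, 7 thinned and 0 to 61 leaving out a library. With edgeR without the block they came to 0 (266 of 5353 genes tested at an unadjusted p under 0.05). TMM left out gave 6 higher and 4 lower calls in the first comparison and 12 and 11 in the last. The cause of these differences was not tested. Thinned Cd4 shares gave no ratio, and the thinned test of Cd8 against Cd4 cells could not be fitted.

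Some genes turned direction, most of them genes of neutrophils or B cells. With the mean of single-cell CPM, IR over Control was 0.971 for Trbc1 and 1.27 for Ebf1, and IR+CBD over IR was 0.863 for S100a9. Without marked doublets, IR over Control was 0.544 for Camp, 0.742 for Ngp, 0.461 for S100a8, 0.693 for S100a9, 5.19 for Ebf1 and 0.638 for Lyz2, and IR+CBD over IR was 0.833 for S100a9 and 1.06 for Ngp. Over the 198 cells, IR over Control was 0.628 for Camp, 0.877 for Ngp, 0.534 for S100a8, 0.762 for S100a9, 0.853 for Lyz2, 1.32 for Ebf1 and 1.31 for Cd74, and IR+CBD over IR was 0.848 for S100a9, 1.12 for Ngp and 0.360 for Ifitm3. Ngp and Camp in Cd8 cells against those with neither co-receptor were then -0.43 and -0.72 on the log2 scale.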

Other observations

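Genes of lymphocyte egress and marrow homing were split, with 9 of 14 higher in IR than in Control (median log2 ratio 0.29). Genes of survival cytokine receptors and the BCL2 family were near level, with 8 of 14 higher (median 0.05). Zbtb16, the factor of innate-like T cells, stood at 65.5, 8 and 48.4 CPM in Control, IR and IR+CBD. By CPM, IR was at 0.122 times Control (0.0242 to 0.382). The gene was found in only 16, 2 and 3 cells. By share of cells, IR was at 0.281 times Control, with an interval that includes 1 (0.0313 to 1.19).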
